A study of Mus musculus with 24 samples.

Results

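Translation initiation factors were the genes whose symbols begin with Eif1 to Eif6, with the eIF2 kinases (Eif2ak genes) left out, and 51 of the 22009 named genes of the table met this rule. The samples were CD4+ T cells purified by negative selection from the spleens of adult wildtype C57BL/6 mice, and RNA sequencing gave 24 libraries. 2 libraries were of resting cells and 18 were of cells activated with anti-CD3e and anti-CD28 for 4, 8, 12, 16, 20 or 24 h, with 1 library for each of the Th0, Th1 and Th2 skewing conditions at each time point. Th0 cultures received no skewing agent. Th1 cultures were given recombinant IL-12 while IL-4 was blocked with anti-IL-4. Th2 cultures were given recombinant IL-4 together with 2 blocking antibodies, anti-IFNG and anti-IL-12. In the other 4 libraries, cells stimulated for 16 h (skewing condition not given) were kept for 0, 1, 2 or 4 h with actinomycin, an inhibitor of transcription.

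The cells were pooled from several mice, and each condition and time point was sequenced a single time, so p-values measure only the spread between these libraries. Ages and sexes of the mice are not given. The sample titles carry 1 number for both resting libraries and another for all Th0, Th1 and Th2 cultures, and what it marks is not given. If it marks a batch, batch and activation cannot be told apart in a comparison with resting cells. Titles of the actinomycin libraries carry no such number, so whether they share a batch with the time course is not given. Expression is given as RPKM, a read count scaled by transcript length and by the mapped reads of the library, which is a level relative to all RNA of that library. The number of mapped reads, recovered from the steps of the RPKM values, lay between 17512327 and 33017024 in the time-course libraries and between 18052872 and 25735458 in the actinomycin libraries. In the 21 tested members whose values were whole numbers of reads, a library held between 47 and 28946 reads of a member. Read counts of these 21 members differed between both resting samples beyond counting noise (chi-square of 6.17 per member). The pair was counted as 2 libraries, which may be repeat libraries of 1 pool of cells.

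Initiation begins when eIF2 brings the initiator tRNA to the small ribosomal subunit, helped by eIF1, eIF1A, eIF3 and eIF5. The eIF4F complex, made of the cap-binding protein eIF4E, the helicase eIF4A and the scaffold eIF4G, brings this subunit to the mRNA, and eIF5B joins the large subunit. eIF4E-binding proteins keep eIF4E from the scaffold, and eIF2B recharges eIF2 with GTP for a further round. T cells that leave the resting state grow and raise their rate of protein synthesis before they divide.

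The T cell genes Cd3d, Cd3e, Cd3g, Cd4 and Cd28 were present in every library, with a summed level between 768 and 1271 RPKM in the time course. Their sum was 1269 and 1271 RPKM in resting libraries, 768 to 850 RPKM at 4 h and 863 to 928 RPKM at 24 h. Genes of other cells also moved with time. The 7 red blood cell genes took 6.39 to 7.01% of all RPKM in resting libraries, 5.05 to 7.44% at 4 h and 0.0237 to 0.0336% at 24 h. Summed levels of the 7 macrophage genes went from between 462 and 480 RPKM in resting cells to between 6.66 and 7.84 RPKM at 24 h. Those of 5 B cell genes went from 62.2 and 72.3 RPKM to between 8.83 and 18.2 RPKM, of 3 NK cell genes from 47.8 and 48.0 RPKM to between 6.21 and 9.07 RPKM, and of 4 neutrophil genes from 9.21 and 10.7 RPKM to between 0.795 and 2.68 RPKM, with Ly6g at 0. The 2 CD8 genes had 12.4 and 12.7 RPKM at first and 7.44 to 11.9 RPKM at 24 h. The part of B, NK, CD8 and neutrophil genes in the results was not tested. The Th2 library at 24 h stood apart from its time point, with a median absolute log2 difference of 0.23 from the mean of the Th0 and Th1 libraries over all genes, against 0.11 to 0.19 for the other libraries from 12 h on.

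Promoter sequences were read from RefSeq (GRCm38.p6) for 39 of the 51 members, as the 250 bases before each annotated start site. They are shown here for Eif4a1 and Eif4a2, the closely related helicases of eIF4F, because these genes moved in opposite directions after activation. The E-box CACGTG, which is the same on both strands and is bound by MYC and related factors, is in capitals.
Eif4a1, chr11:69672424-69672673, minus strand: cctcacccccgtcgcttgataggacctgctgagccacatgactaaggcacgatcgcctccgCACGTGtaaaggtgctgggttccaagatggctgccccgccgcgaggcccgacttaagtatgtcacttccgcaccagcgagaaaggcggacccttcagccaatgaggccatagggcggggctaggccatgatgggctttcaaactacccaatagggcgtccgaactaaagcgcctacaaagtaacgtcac
Eif4a2, chr16:23107218-23107467, plus strand: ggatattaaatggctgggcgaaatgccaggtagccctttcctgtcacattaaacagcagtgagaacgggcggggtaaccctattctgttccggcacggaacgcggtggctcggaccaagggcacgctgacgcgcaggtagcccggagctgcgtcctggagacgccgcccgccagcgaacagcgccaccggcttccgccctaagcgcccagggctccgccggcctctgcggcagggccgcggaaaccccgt

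The Eif4a1 window held 1 E-box, which began 189 bases before the start site, and the Eif4a2 window held none. Of the 39 members with a window, 9 had at least 1 E-box, which was also found in 6.86% of the 27025 genes with a window and in 10.1% of the 8303 such genes that were tested in the time course. They were Eif1b, Eif3f, Eif3k, Eif4a1, Eif4e, Eif4g1, Eif4h, Eif5a and Eif5a2. By their change at 24 h, 4 of the 19 members with a window that rose at least 2-fold held an E-box, and 5 of the 19 other tested members with a window. A match of each of Eif4e, Eif4h and Eif5a, the other 3 that rose at least 2-fold, is shown with 10 bases on either side. Eif4e and Eif5a have several annotated start sites, and the matches shown began 64 bases (Eif4e), 96 bases (Eif4h) and 74 bases (Eif5a) before one of them.
Eif4e, chr3:138527194-138527219, plus strand: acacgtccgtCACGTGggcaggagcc
Eif4h, chr5:134639490-134639515, minus strand: gccgccgcacCACGTGggccgcagag
Eif5a, chr11:69921445-69921470, minus strand: ggggcggggtCACGTGtgtgcgtcat
These matches are descriptions of sequence only.

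After activation, mRNAs of most initiation factors rose, and the rise took place mainly between 4 and 12 h. Over the 49 tested members, the median log2 change against resting cells was 0.06 at 4 h, 0.53 at 8 h, 0.69 at 12 h and 0.94 at 24 h, while the median over all 10897 tested genes lay between -0.07 and -0.01 at these and the other time points. The other 2 members were not tested because they were at or near 0 in every library: Eif2s3y, the Y-linked gene of the eIF2 gamma subunit, reached at most 10 reads, and Eif4e1b, a germ cell relative of eIF4E, was at most 0.131 RPKM. The summed level of all members was 6019 and 6058 RPKM in the resting libraries, 5344 to 6825 RPKM at 4 h and 9815 to 10671 RPKM at 24 h, so resting and 24 h libraries did not overlap. In bulk RNA, fewer cells of a type and less RNA per cell cannot be told apart.

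At 24 h, 24 of the 49 members (49%) were at least 2-fold higher than in resting cells and none was 2-fold lower, by limma with Benjamini-Hochberg adjusted p under 0.05. Of all genes tested, 12.7% were called higher and 17.4% lower by this rule. At any fold, 37 members rose and 2 fell, against 31.6% and 33.6% of all genes. The number at least 2-fold higher was 0 at 4 h (2.61% of all genes), 8 at 8 h (6.42%), 17 at 12 h (10.7%), 17 at 16 h (11.2%) and 20 at 20 h (12.9%). At 4 h, 13 members had an unadjusted p under 0.05 (share of all genes not given). At any fold 2 rose at 4 h (Eif4h and Eif6) and 3 fell (Eif4a2, Eif2b1 and Eif4ebp1), against 11.5% and 20.2% of all genes. At 8 h, 29 members rose at any fold and Eif4a2 fell, against 22.5% and 27.9% of all genes. The total of 30 at any fold was 15 with only the libraries compared, 17 without the Th1 cultures and 19 with either resting library left out. The 8 at 2-fold were 13 with median-of-ratios scaling and 14 without the Th0 cultures. Shares of all genes under these settings are not given.

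Without the Th2 library at 24 h, 23 members were at least 2-fold higher at that time (share of all genes not given). With the red blood cell genes removed and the libraries rescaled, 18 members were at least 2-fold higher at 24 h (share of all genes not given). That setting moved the median of all genes to -0.15. The members' median lay 0.97 above the median of all genes both with it and without it. Rescaling shifts all genes of a library nearly alike, so this gap could hardly change. Against the 4 h cultures, whose titles carry the same number as those of the 24 h cultures, 18 members were at least 2-fold higher at 24 h (13% of all genes) and none was 2-fold lower. Of the 39 members that passed at 24 h at any fold, 28 kept their call in all alternatives run, at 2-fold where they were called so. The call was lost in 9 alternatives for Eif4g2, in 7 for Eif3k, in 5 each for Eif1b, Eif2a and Eif3d, in 4 each for Eif3g and Eif5b, in 3 for Eif2s3x, in 2 each for Eif3j1 and Eif4ebp1 and in 1 for Eif3a.

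Between neighbouring time points, most calls were in the step from 4 to 8 h. Eif2b3 and Eif5a rose at least 2-fold in it (2.95% of all genes), and 25 members rose at any fold (15.8%). The 4 later steps gave 0 members at any fold by limma, against 2.05%, 0.358%, 0.606% and 0.78% of all genes. At an unadjusted p under 0.05 the number was 10 from 8 to 12 h, 4 from 12 to 16 h, 1 from 16 to 20 h and 0 from 20 to 24 h. Shares of all genes at this unadjusted p are not given. With the condition as a further term over the 18 cultures, which was added after the values were seen, 32 members rose from 4 to 8 h (20% of all genes) and 2 from 8 to 12 h (2.18%), namely Eif2b1 by 0.47 and Eif3i by 0.43, and 0 in the later steps. Without the Th1 cultures no member passed in any step, with 2 libraries left at each time, and the log2 differences from 4 to 8 h were then 1.13 (standard error 0.41) for Eif2b3 and 1.05 (standard error 0.37) for Eif5a.

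**Figure D1:**
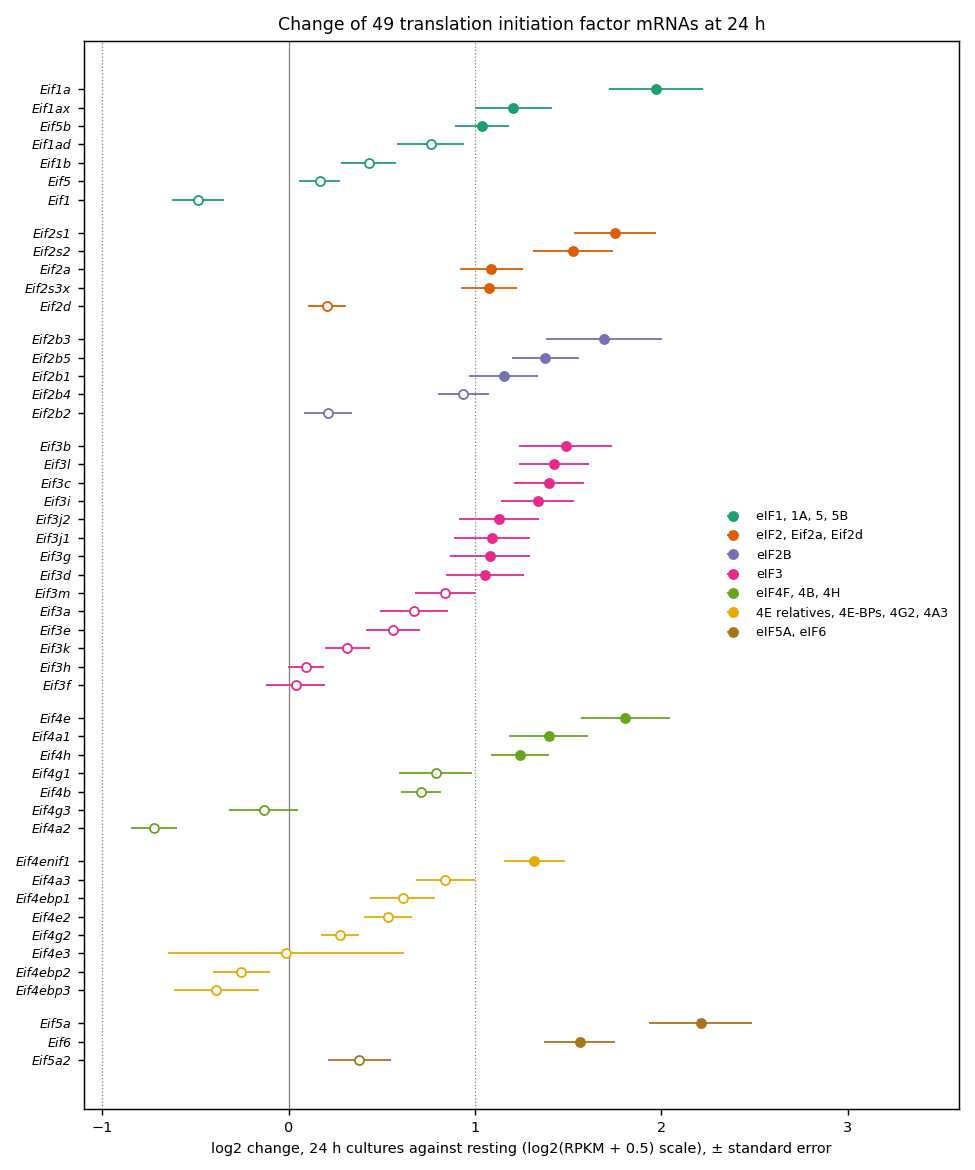
Log2 change of the 49 tested members at 24 h against resting cells, with the standard error from limma, grouped by role; filled points passed adjusted p under 0.05 at 2-fold or more, and dotted lines mark 2-fold. Eif5a lies highest at 2.21 and Eif4a2 lowest at -0.72.

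The largest rise was that of Eif5a, the gene of a factor that carries the modified residue hypusine and helps ribosomes through difficult stretches. Eif5a had 334 and 351 RPKM in the resting libraries. The gene lies on chromosome 11 (GRCm38, 69916714 to 69921958, minus strand). In Th0 it had 299, 625, 1265, 1411, 1641 and 1485 RPKM at 4, 8, 12, 16, 20 and 24 h. At the same times it had 352, 1097, 1417, 1336, 1579 and 1579 RPKM in Th1 and 652, 1338, 1544, 1525, 1644 and 1710.1 RPKM in Th2. From 8 h on every culture was above both resting libraries, while at 4 h Th0 was below them, Th1 was within 1 RPKM of the higher and Th2 was above both.

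The log2 change of Eif5a at 24 h was 2.21 (standard error 0.28, limma adjusted p = 4.51e-06), or 4.63-fold. Its relative Eif5a2 was low throughout, between 3.11 and 6.45 RPKM in all libraries, and did not pass the test at 24 h (adjusted p = 0.0592). Dhps and Dohh, the enzymes that make hypusine on eIF5A, each rose at any fold but not at 2-fold, with log2 changes of 0.97 and 0.95.

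Eif6, the gene of a factor that keeps the large subunit from joining too early, had 55.7 and 61.3 RPKM in resting cells. From 4 to 24 h it had 97.4, 99.8, 163, 187, 201 and 175 RPKM in Th0, 90.3, 143, 179, 176, 210.3 and 193 RPKM in Th1 and 116, 186, 202, 219.9, 211 and 155 RPKM in Th2. Every culture was above both resting libraries from 4 h on, and the log2 change was 0.78 at 4 h (adjusted p = 0.00515) and 1.56 at 24 h (standard error 0.19, adjusted p = 3.59e-06).

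Among the factors of start codon selection and subunit joining, 3 of 7 rose at least 2-fold at 24 h, 5 rose at any fold and 1 fell. Eif1a, the gene of a factor that scans for the start codon together with eIF1, had 25.7 and 25.6 RPKM in resting cells. From 4 to 24 h it had 27.0, 53.7, 88.3, 78.5, 84.1 and 93.9 RPKM in Th0, 38.0, 96.2, 103, 89.6, 91.9 and 95.1 RPKM in Th1 and 58.8, 88.4, 94.6, 88.4, 84.1 and 119 RPKM in Th2. All cultures were above both resting libraries, the Th0 culture at 4 h only just. The log2 change at 24 h was 1.97 (standard error 0.25, adjusted p = 5.12e-06), and its X-linked copy Eif1ax rose by 1.20.

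Eif1 moved the other way. It had 762 and 783 RPKM in resting cells, and from 4 to 24 h it had 556, 608, 776, 699, 676 and 510.3 RPKM in Th0, 584, 748, 731, 567, 589 and 610.5 RPKM in Th1 and 707, 799, 677, 591, 576 and 537 RPKM in Th2. All 3 cultures were below both resting libraries at 24 h, with a log2 change of -0.49 (standard error 0.14, adjusted p = 0.00607), while at 8 and 12 h they overlapped them. Other genes share 19.2% of the 50-base windows of the Eif1 transcripts, so its reads could have been split or shared. Eif5b rose by 1.04, Eif1ad by 0.76 and Eif1b by 0.43 on the log2 scale, and Eif5, the GTPase activator of eIF2, did not pass the test, with means of 169 RPKM at rest and 189 RPKM at 24 h.

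Genes of eIF2, which carries the initiator tRNA, rose together. Of the 5 tested genes of eIF2 and initiator tRNA delivery, 4 rose at least 2-fold at 24 h, and Eif2d, a factor outside the eIF2 complex, did not pass the test. Eif2s1, the gene of the alpha subunit that the stress kinases phosphorylate, had 33.5 and 32.9 RPKM in resting cells. In Th0 it had 32.3, 55.6, 86.6, 80.1, 89.7 and 100.5 RPKM from 4 to 24 h, in Th1 43.7, 91.2, 98.6, 88.3, 94.7 and 101 RPKM and in Th2 57.8, 89.9, 96.9, 89.9, 92.6 and 141 RPKM. From 12 h to 20 h the cultures lay within 80.1 to 98.6 RPKM, and the Th2 library at 24 h was the highest.

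The log2 change of Eif2s1 at 24 h was 1.75 (standard error 0.22, adjusted p = 4.58e-06). Eif2s2, the gene of the beta subunit, had 55.4 and 56.8 RPKM in resting cells. It had 52.5, 96.6, 134, 116, 125 and 148 RPKM in Th0, 74.6, 147, 160.5, 144, 138 and 140.1 RPKM in Th1 and 90.7, 138, 152, 144, 139 and 206 RPKM in Th2 from 4 to 24 h. Only the Th0 culture at 4 h was below the resting libraries, and the log2 change at 24 h was 1.52. Eif2s3x, the gene of the gamma subunit, started from a higher level of 131 and 121 RPKM and rose by 1.08 on the log2 scale, and 34.6% of its 50-base windows are shared with transcripts of other genes. Eif2a, which despite its symbol is not an eIF2 subunit, rose by 1.09.

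In eIF2B, the exchange factor of 5 subunits, 3 genes rose at least 2-fold at 24 h, and Eif2b4 rose by 0.94. Eif2b3, the gene of the gamma subunit, was the lowest at rest with 10.0 and 8.99 RPKM. From 4 to 24 h it had 6.30, 15.6, 31.0, 32.2, 33.5 and 27.3 RPKM in Th0, 8.28, 31.4, 35.5, 31.3, 35.4 and 31.1 RPKM in Th1 and 16.4, 33.9, 34.5, 34.4, 38.0 and 37.8 RPKM in Th2. The log2 change at 24 h was 1.69 (standard error 0.31, adjusted p = 0.000171). Only the Th2 culture was above both resting libraries at 4 h, and every culture was from 8 h on.

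Eif2b5, the gene of the catalytic epsilon subunit, rose by 1.38 and Eif2b1 by 1.15, while Eif2b2, the highest at rest with 47.4 and 50.9 RPKM, had 53.4, 61.3 and 56.7 RPKM at 24 h and did not pass the test. From 8 h on the subunits were closer in level than in resting cells. The ratio of the highest to the lowest of the 5, on the per-length RPKM scale, was 4.73 and 5.66 in the resting libraries, 3.07 to 7.58 at 4 h, 1.54 to 2.79 at 8 h and 1.499 to 2.05 at 24 h. With 2 resting libraries against 3 cultures, an exact permutation test of this ratio cannot give a p below 0.10, so none was run.

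**Figure D2:**
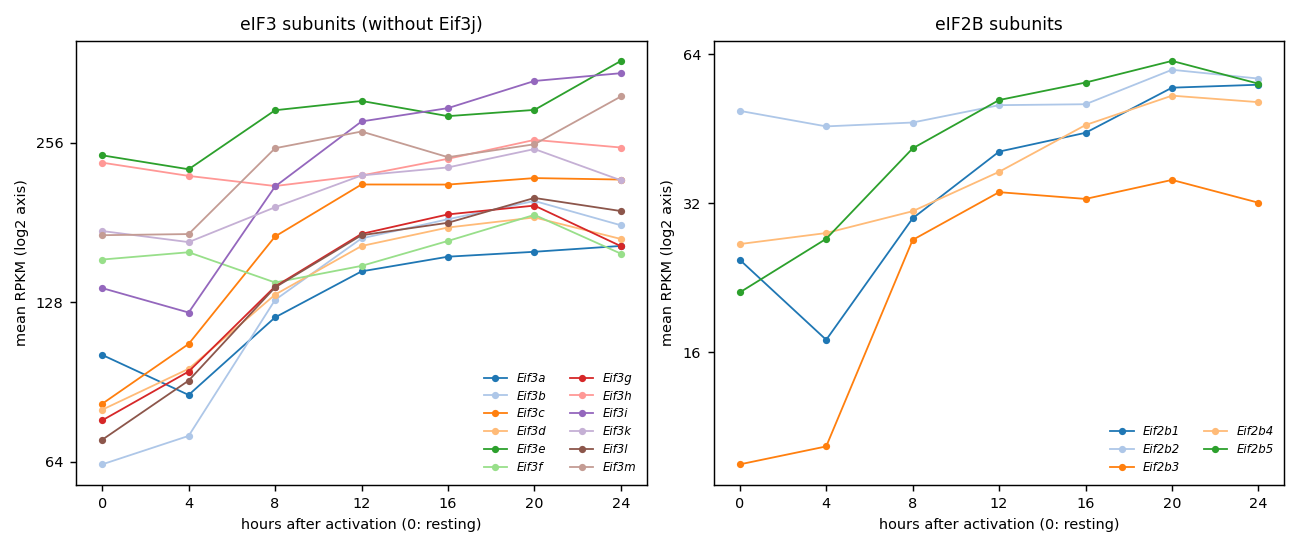
Mean level of the 12 eIF3 subunit genes other than Eif3j1 and Eif3j2 (left) and the 5 eIF2B subunit genes (right) on a log2 RPKM axis against hours after activation, where 0 is the mean of 2 resting libraries and each later point the mean of 3 cultures. Genes lower at rest tended to rise more, as measured from the same resting libraries, and Eif2b3 is the lowest eIF2B gene at rest.

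eIF3, the scaffold that holds the other factors on the small subunit, showed a similar split between its genes. Of 14 tested genes, 8 rose at least 2-fold at 24 h, 4 more rose at any fold and 2 did not pass the test. Eif3b rose by 1.49, Eif3l by 1.42, Eif3c by 1.40, Eif3i by 1.34, Eif3g by 1.08 and Eif3d by 1.05 on the log2 scale. Eif3m rose by 0.84, Eif3a by 0.67, Eif3e by 0.56 and Eif3k by 0.31. Eif3f had 143 and 165 RPKM in resting cells, and from 4 to 24 h it had 195, 150.2, 166, 188, 216 and 160.5 RPKM in Th0, 141, 127, 147, 143, 166 and 168 RPKM in Th1 and 142, 141, 137, 169.6, 179 and 146 RPKM in Th2, which overlapped the resting level at 24 h. Eif3h had 229 and 241 RPKM in resting cells and 257, 266 and 229 RPKM in Th0, Th1 and Th2 at 24 h, which also overlapped.

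Among the 12 genes other than Eif3j1 and Eif3j2, the 5 lowest in resting cells (Eif3b, Eif3l, Eif3g, Eif3d and Eif3c) all rose at least 2-fold, and the 5 highest (Eif3e, Eif3h, Eif3k, Eif3m and Eif3f) all stayed below 2-fold. Rank and change both use the same resting libraries, so they are not independent, and the share of this in the pattern was not tested. Over these 12 genes, the standard deviation of the log2 levels was 0.69 in both resting libraries, 0.52 to 0.62 at 4 h, 0.28 to 0.36 at 16 h, and 0.36 in Th0 and 0.31 in Th1 at 24 h. The Th2 library at 24 h was an exception at 0.65, with Eif3e at 474 RPKM, against 316 and 305 RPKM in Th0 and Th1, and Eif3d at 140.2 RPKM, against 181 and 184 RPKM. Eif3j1 and Eif3j2 rose by 1.09 and 1.13, but 91.8% of the 50-base windows of Eif3j2 also occur in Eif3j1 or another gene, so these rows are uncertain as separate genes. Of the exon bases of Eif3d, 43.3% lie under exons of a gene on the opposite strand, and whether strand was used in counting is not given in the sources used here. The same holds for Eif3j1, Eif5b, Eif1ad and Eif1b, with 12.7 to 19.0% of exon bases.

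Within eIF4F, the cap-binding protein and 1 of the helicases rose and the other helicase fell. Eif4e had 26.9 and 27.6 RPKM in resting cells. From 4 to 24 h it had 29.3, 52.7, 86.7, 82.5, 86.2 and 83.7 RPKM in Th0, 37.1, 86.9, 94.8, 80.0, 89.3 and 88.6 RPKM in Th1 and 56.2, 94.4, 98.2, 88.2, 84.1 and 121 RPKM in Th2. All cultures were above both resting libraries at each time point, and the log2 change at 24 h was 1.81 (standard error 0.24, adjusted p = 7.95e-06). The Th2 value at 24 h came from 8932 reads (exact Poisson 95% interval 119 to 124 RPKM, counting error only) and the Th0 value from 6474 reads (81.7 to 85.8 RPKM).

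Eif4a1, the gene of the main eIF4F helicase, had 509 and 497 RPKM in resting cells. In Th0 it had 466, 687, 1112, 1137, 1231 and 1272 RPKM from 4 to 24 h, in Th1 592, 1110.0, 1273, 1114, 1216 and 1304 RPKM and in Th2 818, 1269, 1255, 1207, 1241 and 1397 RPKM. Only the Th0 culture at 4 h was below the resting libraries, and the log2 change at 24 h was 1.40 (standard error 0.21, adjusted p = 3.13e-05). Eif4a2, the gene of the closely related helicase, had 736 and 691 RPKM in resting cells. It had 449.8, 568, 520.3, 427, 433 and 389 RPKM in Th0, 532, 533, 493, 457, 372 and 415 RPKM in Th1 and 463, 459.5, 468, 412, 405 and 501 RPKM in Th2 from 4 to 24 h. All 18 cultures were below both resting libraries, and its log2 change was -0.57 at 4 h (adjusted p = 0.00212) and -0.72 at 24 h (standard error 0.12, adjusted p = 9.41e-05).

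The ratio of Eif4a1 to Eif4a2 was 0.691 and 0.719 in the resting libraries, 1.04, 1.11 and 1.76 in Th0, Th1 and Th2 at 4 h, 1.21, 2.08 and 2.76 at 8 h and 3.27, 3.15 and 2.79 at 24 h. Eif4a2 was therefore the more abundant of the pair in resting cells and Eif4a1 in every culture. Of the 50-base windows of these genes, 28.4% and 10.6% are shared with transcripts of other genes, and 12 tested members had over 10% of their windows shared.

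Eif4g1, the gene of the scaffold, had 137 and 137 RPKM in resting cells. From 4 to 24 h it had 135, 144, 211, 252, 254 and 248 RPKM in Th0, 139, 207, 243, 240.0, 264 and 265 RPKM in Th1 and 155, 283, 274, 273, 281 and 204 RPKM in Th2. The log2 change at 24 h was 0.79 (standard error 0.20, limma adjusted p = 0.00212), with the Th2 culture lowest of the 3 at 24 h and highest before. The scaffold relative Eif4g3 had 47.2 and 53.0 RPKM in resting cells, 64.7, 46.2, 58.6, 62.9, 54.5 and 47.6 RPKM in Th0, 52.1, 61.3, 60.4, 61.4, 54.0 and 51.2 RPKM in Th1 and 48.8, 81.9, 71.7, 65.2, 54.1 and 38.7 RPKM in Th2. It overlapped the resting level at 24 h and did not pass the test there. The helicase cofactors Eif4h and Eif4b rose by 1.24 and 0.71.

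**Figure D3:**
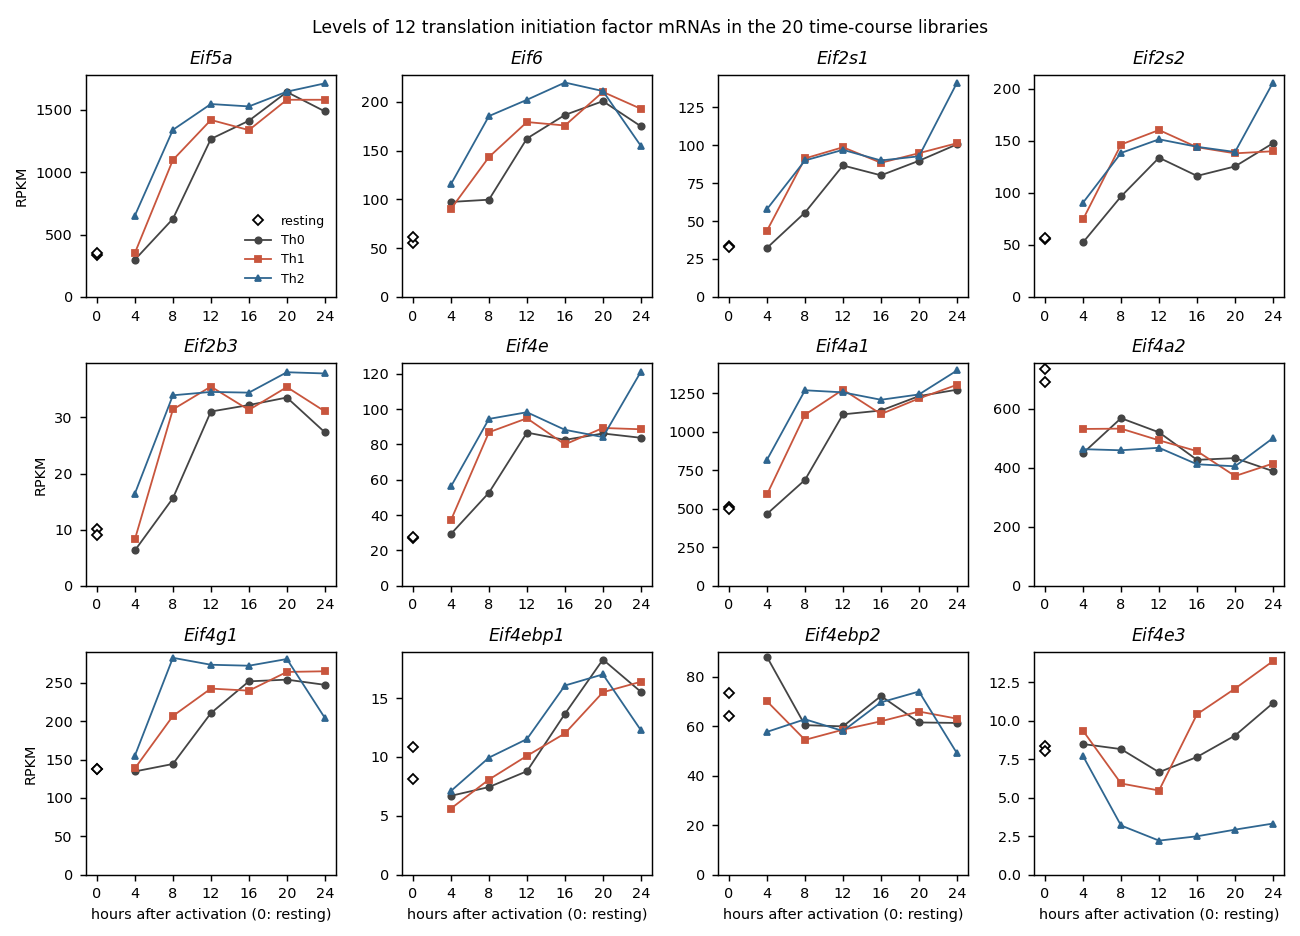
RPKM of 12 members in the 20 time-course libraries against hours after activation, with 2 resting libraries at 0 and 1 library per point for Th0, Th1 and Th2; each vertical axis starts at 0. Eif4a2 lies below its resting level in all 18 cultures, and Eif4e3 is at 2.20 to 3.31 RPKM in Th2 from 8 h on.

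Of the 3 inhibitors of eIF4E, 1 passed the test at 24 h. Eif4ebp1 had 8.15 and 10.8 RPKM in resting cells. From 4 to 24 h it had 6.70, 7.44, 8.79, 13.7, 18.3 and 15.5 RPKM in Th0, 5.62, 8.08, 10.1, 12.0, 15.5 and 16.4 RPKM in Th1 and 7.11, 9.95, 11.5, 16.1, 17.0 and 12.3 RPKM in Th2. The 4 h cultures were all below and the 24 h cultures all above the resting libraries. It fell at 4 h by 0.51 (adjusted p = 0.0333) and rose at 24 h by 0.61 on the log2 scale (standard error 0.17, adjusted p = 0.00564), and its lowest library had 123 reads. Eif4ebp2 had 64.2 and 73.2 RPKM in resting cells, 87.9, 60.4, 59.9, 72.1, 61.4 and 61.2 RPKM in Th0, 70.0, 54.4, 58.5, 61.9, 65.9 and 63.0 RPKM in Th1 and 57.6, 62.7, 58.0, 69.6, 73.9 and 49.01 RPKM in Th2. It was below both resting libraries in all 3 cultures at 24 h and did not pass the test. Eif4ebp3 was low, between 3.004 and 9.55 RPKM in all libraries, did not pass at 24 h, and shares 65.5% of its 50-base windows with another gene.

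Eif4enif1, the gene of a protein that carries eIF4E to the nucleus and represses bound mRNAs, was the only 1 of 8 tested genes of its group that rose at least 2-fold at 24 h, by 1.32 on the log2 scale. It had 46.3 and 47.8 RPKM in resting cells, 40.2 to 44.8 RPKM at 4 h, 58.5 to 75.0 RPKM at 12 h and 114 to 120.1 RPKM at 24 h. Eif4a3, the gene of an exon junction helicase, rose by 0.84, the cap-binding relative Eif4e2 by 0.53 and the scaffold relative Eif4g2 by 0.28. Eif4e3 differed between conditions and is described with them.

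Other genes of the pathway were counted in lists. Of 8 genes of the eIF2 kinases and stress response, 3 fell at least 2-fold at 24 h and none rose, with Ppp1r15a, the gene of a stress-induced subunit of the eIF2 phosphatase, at a log2 change of -4.34 (standard error 0.15). Of 12 genes of mTOR and MNK inputs, 1 rose and 1 fell, namely Larp1, a repressor of terminal oligopyrimidine mRNAs, at 1.22 and Pdcd4, an inhibitor of eIF4A, at -1.34. Abce1, the ribosome recycling factor, rose by 1.51 and was the only 1 of 8 helper genes called. Of 9 tested genes listed under elongation and termination, 4 rose and 1 fell. Eef1e1, which despite its symbol is not an elongation factor, was at 2.18, and Eef2k, the kinase that blocks eEF2, at -1.46. The share of all genes called at 2-fold in this comparison was 30.1%.

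Most members were higher in Th2 than in Th0 at each time point from 4 to 20 h, with the largest median difference at 8 h. At 4 h, 41 of 49 members were higher in Th2 than in Th0, against 45.1% of all genes, with a median log2 difference of 0.21. At 8 h, 43 members were higher, against 50.3% of all genes, the median difference was 0.53, and in 31 members Th1 lay above Th0 and below Th2, against 32.3% of all genes. It was 41 members with a median difference of 0.21 at 12 h (54.8% of all genes higher). At 16 h it was 41 members with 0.18 (51.1%), and at 20 h 39 members with 0.09 (49.6%). At 24 h, 24 members were higher, against 41.0% of all genes, and the median difference was -0.01, against -0.07 over all genes. Each of these values compares single libraries, so no test was made at a single time point, and the Th0 library at 8 h and the Th2 library at 8 h differed most from the mean of the others at their time over all genes, by a median of 0.34 and 0.30.

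Members at least 2-fold higher in Th2 than in Th0 numbered 3 at 4 h and 5 at 8 h, against 2.58% and 5.90% of all genes, and 0 at each time point from 12 h on. Eif2b3 at 4 h had 6.30 RPKM in Th0 and 16.4 RPKM in Th2, a ratio of 2.61, which was 2.18 at 8 h and 1.11 at 12 h. For Eif5a the ratio of Th2 to Th0 was 2.18 at 4 h, 2.14 at 8 h, 1.22 at 12 h and 1.00 at 20 h. The Th1 cultures were nearer to Th0 at 4 h, where the ratio for Eif5a was 1.18, and nearer to Th2 at 8 h, where it was 1.75.

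**Figure D4:**
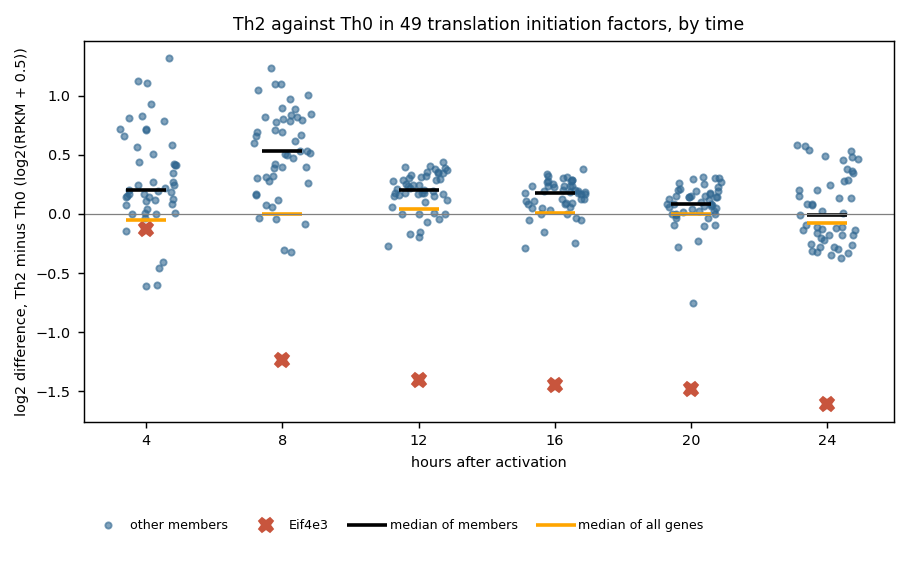
Log2 difference between the Th2 and the Th0 library at each time point for the 49 tested members (points, spread sideways for visibility), with the median of the members in black and of all genes in orange and Eif4e3 as crosses. The members' median is 0.53 at 8 h and -0.01 at 24 h, and Eif4e3 lies apart from 8 h on.

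Over all 6 time points, with time as a factor, 19 members were higher and 2 lower in Th2 than in Th0 at any fold by limma (adjusted p under 0.05), against 12.9% and 16.7% of all genes. In this fit the time points stood in for replicates, and each condition was a single series of cultures. Eif2b3 differed by 0.55, Eif5a by 0.47, Eif4e by 0.42, Eif1a by 0.41 and Eif2s2 by 0.40 on the log2 scale. By role, these 19 were 7 of 14 genes of eIF3, 4 of 5 of eIF2 and initiator tRNA delivery, 2 of 5 of eIF2B, 2 of 7 of eIF4F, 2 of 7 of start codon selection, Eif4enif1, and Eif5a. Eif3f and Eif4e3 were lower in Th2 than in Th0, Eif3f with a difference of -0.23. For Eif3f the difference was -0.26 between Th1 and Th0 and 0.03 between Th2 and Th1, and it did not pass in these comparisons. The number of calls changed with the libraries used. With only the 12 to 24 h cultures 5 members passed, and 10 did without the 4 h time point, 11 without the 8 h time point and 33 without the Th2 library at 24 h. Shares of all genes under these settings are not given, and leaving libraries out changes the test for every gene. Between Th1 and Th0 no member passed at any fold by limma (2.27% of all genes), and 12 had an unadjusted p under 0.05 (share of all genes not given). Without the 24 h time point 5 passed at any fold (share of all genes not given).

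Eif4e3, the gene of a cap-binding relative of eIF4E, was the only member called at 2-fold between conditions. It lies on chromosome 6 (GRCm38, 99625135 to 99666771, minus strand). It was lower in Th2 than in Th0 (1.83% of all genes called lower) and than in Th1 (1.39%). No member was higher in Th2 than in Th1 at any fold (3.49% of all genes), and 5 were at an unadjusted p under 0.05 (share of all genes not given). Eif4e3 had 8.37 and 8.01 RPKM in resting cells. In Th0 it had 8.47, 8.14, 6.64, 7.63, 9.02 and 11.1 RPKM at 4, 8, 12, 16, 20 and 24 h, and in Th1 it had 9.33, 5.91, 5.46, 10.4, 12.1 and 13.9 RPKM. In Th2 it had 7.69, 3.19, 2.20, 2.48, 2.91 and 3.31 RPKM.

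From 8 h on, every Th2 library lay below every Th0 and Th1 library, and at 4 h Th2 was the lowest by a small margin. With the time points in place of replicates, the log2 difference was -1.22 to Th0 (standard error 0.19, limma adjusted p = 0.000273) and -1.31 to Th1 (adjusted p = 0.000176). In all alternatives run, the first lay between -1.48 and -1.11 and the second between -1.70 and -1.19. At 24 h the Th2 value rested on 213 reads (exact Poisson 95% interval 2.88 to 3.79 RPKM, counting error only) and the Th1 value on 964 reads (13.0 to 14.8 RPKM). Of the exon bases of Eif4e3, 14.8% lie under exons of another gene on the same strand. At 24 h it was below both resting libraries in Th2 and above both in Th0 and Th1, and over the 3 cultures together it did not pass the test against resting cells.

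After actinomycin, 6 members were at least 2-fold lower at 4 h than at 0 h and none was 2-fold higher, against 6.55% and 4.73% of the 10571 genes tested. The median log2 difference was -0.28 over 49 members and -0.00 over all genes, and values are relative to the RNA that remained in each library. With 1 library per time there is no replicate error, and the smallest p that an exact permutation of the 4 times can give is 0.0417 (two-sided). Before actinomycin, 23 members lay within the range of the Th0, Th1 and Th2 libraries at 16 h, 20 above it and 6 below it, against 32.9%, 28.8% and 38.3% of all genes tested after actinomycin.

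Eif4e had the lowest slope, with 106, 80.1, 71.1 and 37.0 RPKM at 0, 1, 2 and 4 h, a log2 difference of -1.51 that lay at percentile 1.70 of all genes. Its exact permutation p of 0.0417 (unadjusted) was the smallest possible and was shared with other members. Eif4e was picked for its slope, so this p gives no support. Eif2b3 had 44.6, 38.5, 29.0 and 17.0 RPKM, and Eif2s1 109.8, 95.2, 81.4 and 46.2 RPKM. Eif1a, with 107, 85.9, 81.3 and 44.9 RPKM, also had a lower value at each later time. Eif3j2 and Eif3e differed by -1.09 and -1.01 in log2 between 4 and 0 h. All 5 genes of eIF2B were lower at 4 h than at 0 h, and 4 of 5 of eIF2 and initiator tRNA delivery, against 50.1% of all genes.

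The 3 highest slopes were those of Eif4g3, Eif3f and Eif1. Eif4g3 had 48.98, 57.8, 53.6 and 85.2 RPKM at 0, 1, 2 and 4 h, Eif3f had 148, 145, 156 and 198 RPKM, and Eif1 had 602, 640.2, 784 and 807 RPKM. Their values at 4 h were all above those at 0 h. Eif5a, which had the largest rise on activation, had 1653, 1847, 1998 and 1839 RPKM, so its level relative to the remaining RNA was not lower at 4 h than at 0 h.

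At the same times Eif4a1 had 1241, 1164, 1058 and 812 RPKM and Eif4a2 571, 392, 497 and 536 RPKM. Eif4g1 had 238, 263, 218 and 271 RPKM, Eif2s2 181, 166, 143 and 91.5 RPKM, and Eif6 179, 201, 143 and 169.9 RPKM. Eif4ebp1 had 13.4, 17.5, 17.3 and 15.5 RPKM, Eif4ebp2 55.2, 63.9, 55.5 and 73.5 RPKM, and Eif4e3 4.403, 4.35, 3.54 and 3.02 RPKM. Of these 8, Eif4a1, Eif2s2 and Eif4e3 were lower at each later time. Among all 49 members, 15 were lower at each later time, against 12.96% of all genes.

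**Figure D5:**
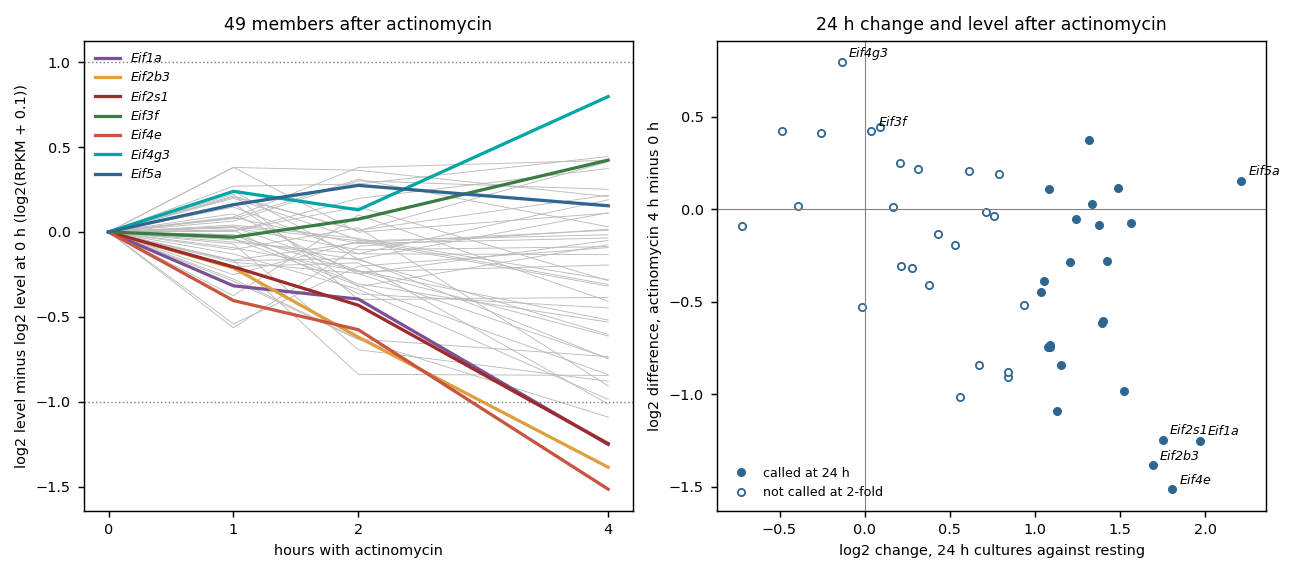
Left, log2 level of each of the 49 members minus its level at 0 h against hours with actinomycin, with 1 library per time and 2-fold marked by dotted lines. Right, the log2 difference at 4 h of actinomycin against the log2 change at 24 h of activation, with filled points for members called at 2-fold at 24 h; Eif4e, Eif1a, Eif2b3 and Eif2s1 lie at the lower right and Eif5a at the upper right.

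Of all genes, 50.1% were lower at 4 h than at 0 h of actinomycin. Of the 24 members called at 24 h, 19 were lower, with a median log2 difference of -0.53, and of the 25 other tested members 14 were lower, a share near that of all genes, with a median of -0.04. Across the 49 members, Pearson's r between the 24 h change and the actinomycin difference was -0.51 and Spearman's rho -0.47. This is a description across genes, which are not independent replicates, and all points of an axis share the same libraries.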

How the data were processed

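RNA sequencing of CD4+ T cells gave the values, which the authors deposited as RPKM in 1 table of 24 libraries. The submitters' processing notes name BWA, with no version, and GRCm38; the program and annotation used for counting are not given in the sources used here. RPKM steps of low genes gave the mapped reads of each library and whole reads for 22 of 51 members. Groups came from the sample titles and characteristics. Values were taken to log2(RPKM + 0.5), genes whose mean was 1 RPKM or more were kept, and limma 3.58.1 in R 4.3.3 with an intensity trend was fitted, with time as a factor of 7 levels over 20 libraries, or time and condition over 18 cultures. A fold change on this scale understates the change of low genes. Calls needed a Benjamini-Hochberg adjusted p under 0.05 over all genes tested, and 2-fold where stated. Actinomycin differences and slopes used log2(RPKM + 0.1). Poisson intervals are at 95%. The fits were tested on simulated data. The members, roles, gene lists and tests were chosen with earlier results of these data known. Members named with values in every library were 10 listed genes, the 5 largest rises and the largest falls at 24 h, members called between conditions, and the 3 lowest and 3 highest actinomycin slopes; no member fell 2-fold, so both that fell at any fold were given. Remarks on E-boxes and on the spread of subunits were added after the values were seen. Alternatives covered pseudocounts, filters, scaling and left-out libraries. Gene positions came from GENCODE M21 (GRCm38).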

Additional observations from a re-analysis of the deposited data

Results flagged for a closer look

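The change of Eif4e3 from rest differed between conditions, by limma across the 6 time points, which stood in for replicates. The log2 difference was -1.22 between Th2 and Th0 and -1.31 between Th2 and Th1, and every Th2 library from 8 h on was below every library of the other two conditions. No tested member moved one way from rest in every library of 1 condition and the other way in every library of another.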

How the results depend on the processing

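With 1 library per condition and time point, conditions at a single time cannot be tested, and the labels number no cultures. No paired analysis was possible because only the resting libraries carry replicate numbers. The numbers of members called at 2-fold at 12, 16, 20 and 24 h stayed within 1.5 times under all settings run, as did both numbers for 24 h against 4 h and the number past 2-fold after actinomycin. At 8 h the number at 2-fold was 13 with median-of-ratios scaling, against 8, and reached 14 without the Th0 cultures and was at least 7 with libraries left out. At 8 h at any fold it was 15 with only the libraries compared, against 30, and 17 to 32 with libraries left out. At 4 h at any fold it was 8 with quantile normalization, against 5, and 2 to 12 with libraries left out. Between Th2 and Th0 at any fold it was 13 with no filter, 5 with only 12 to 24 h and 9 with only 2 conditions, against 21, and 10 to 35 with time points or the Th2 24 h library left out. Between Th2 and Th1 at any fold it was 3 with median-of-ratios and with upper-quartile scaling, against 1, and 1 to 7 with libraries left out. Between Th1 and Th0 at any fold it was 1 with quantile normalization, against 0, and 0 to 5 with libraries left out. In the steps between time points it was 0 to 4 at 2-fold, against 2, and 0 to 30 at any fold, against 25, with libraries left out. Both were 0 without the Th1 cultures. Shares of all genes under these settings are not given, and each setting changes the test for every gene. At 24 h the median of all genes was 0.10 with median-of-ratios scaling and 0.11 with quantile normalization, and the members' median lay 0.98 and 0.73 above it. Median-of-ratios scaling shifts all genes of a library nearly alike, so it could hardly change this gap. Of 206 member values that passed a test, none turned in direction under any setting, and 131 stayed past the threshold in all. The cause of these changes was not tested. The settings without red blood cell or macrophage genes, without the Th2 24 h library and with the condition as a term were chosen after seeing the data.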
